A study of Mus musculus with 37 samples.

Results

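The regions described here were 892 open reading frames (ORFs) that begin as their gene's main coding sequence does, or join it in its own reading frame, and then end at a different stop codon. An ORF runs from its start codon to the first stop codon in the same frame. The isoforms were read from 1 list of 22367 ORFs that the authors scored as translated. ORFs with the same gene name, chromosome and strand were put together as a family. The ORF with the most codons was taken as the main ORF of each of the 10418 families, and an ORF counted as an isoform when it shared at least 1 whole in-frame codon with the main ORF and had another stop. By this rule 3.99% of the listed ORFs were isoforms (95% Clopper-Pearson interval 3.74 to 4.25), and 703 families had at least 1, which is 6.75% of all families (6.27 to 7.25).

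The list came from ribosome profiling, in which the RNA fragments that ribosomes protect from nuclease are sequenced. The cells were dendritic cells grown in culture from bone marrow of C57BL/6J mice aged 6 to 8 weeks, sampled as 37 libraries. LPS, a component of the outer membrane of Gram-negative bacteria, was given at 100 ng/mL, and times ran from 0.5 to 12 h. Cycloheximide, which stalls elongating ribosomes, was present at 100 ug/mL for 1 min in 16 LPS, 8 mock and 2 naive libraries. No inhibitor was given in 8 LPS libraries and 1 naive library. Harringtonine (1 ug/mL, 5 min) and lactimidomycin (50 ug/mL, 30 min), which stop ribosomes at or close to the start codon, were used in 1 library each, on a mixture of LPS times. All of these libraries stand behind the same list, so no level per library, no read depth and no change with LPS could be given, and intervals cover counting error over ORFs or genes only. Of 10 dendritic cell markers 9 had a listed ORF, including Itgax, Cd74 and Zbtb46, and Flt3 had none in the list used here. Of the other marker lists, 8 of 8 neutrophil genes and 8 macrophage and monocyte genes had an ORF, while the macrophage marker Lyz2 had none. An ORF was also listed for 4 of 6 fibroblast and endothelial genes, 2 of 5 mast cell genes and 1 of 6 lymphocyte genes. The part of such cells in any single isoform was not tested.

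Mammalian genes give proteins with different carboxyl termini when an exon is skipped or added, when another splice site is used, or when the transcript is cleaved and polyadenylated inside an intron. The changed end can remove a membrane anchor or a kinase domain, as in soluble cytokine receptors. A stop codon that lies well before the last exon junction is also the classical mark of transcripts that nonsense-mediated decay can degrade, and splicing factors are known for regulating their own transcripts in this way.

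Of the 703 families, 552 had 1 isoform, 124 had 2, 19 had 3, 5 had 4 and 3 had 5. The 892 isoforms ended at 774 distinct stop codons and made 845 distinct pairs of start and stop, and 64 families had isoforms with more than 1 stop. Isoforms of a family share bases and reads and are not independent of each other. The start of the main ORF was used by 646 isoforms (72.4%, 69.4 to 75.3), 184 (20.6%) started at an in-frame codon inside the main ORF, and 62 (6.95%) started elsewhere. Matching to RefSeq symbols named 694 of the families, of which 683 were protein coding.

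Isoforms had a median of 208 codons (quartiles 79.8 and 428, range 2 to 3790), against 485 codons in their own main ORFs (quartiles 318 and 758). The shared codons made up a median of 41.8% of the main ORF (quartiles 14.6 and 70.7), and 167 isoforms kept under 10% of it while 69 kept over 90%. After the last shared codon the isoforms ran on through a short tail of their own, with a median of 13 codons (quartiles 5 and 28, range 0 to 805). The tail had 5 codons or fewer in 250 isoforms (28.0%, 25.1 to 31.1) and 100 or more in 51 (5.72%). A median of 202 codons of the main ORF lay after the last shared codon. At the edge of the rule, 8 isoforms shared exactly 1 codon and 44 shared under 10, and no ORF outside the rule had in-frame bases of the main ORF without a whole shared codon. Since the main ORF is the longest by definition, that isoforms are shorter is fixed by the rule. Only 8 isoforms were as long as their main ORF.

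The place of the new stop was read from the exon blocks. In 325 isoforms (36.4%, 33.3 to 39.7) the stop lay within coding bases of the main ORF read in another frame. In 294 (33.0%) it lay between main coding exons, in sequence continuous with one of them, and in 142 (15.9%) it lay there in an exon of the isoform's own. The stop was past the main stop but within the main transcript's exons in 75 (8.41%), and past it outside those exons in 56 (6.28%). Isoforms of the last kind had the longest tails, with a median of 44 codons (quartiles 14.5 and 244), against 8 codons for stops in sequence continuous with a main exon (quartiles 2 and 19.8).

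The isoforms were sorted by the first exon difference after the last shared codon. This event need not be the only difference between the transcripts. In 81 isoforms the shared codons did not form 1 run, so these also differed from the main ORF before it. A main exon was skipped in 144 isoforms (16.1%), the transcript ended inside the intron in 126 (14.1%) and the intron was retained in 109 (12.2%). An earlier donor site was used in 90, an extra internal exon in 90, a later acceptor within the same exon in 82 and a last exon of its own in 68. The rest used a later donor (49), another later exon (48), an earlier acceptor (45) or had a stretch of a main exon spliced out (41). Isoforms with a skipped exon or a later donor shared a median of 21.4% of the main ORF each. The median was 51.6% where the transcript ended in the intron and 64.2% where a stretch of an exon was removed. The main ORF went on for a median of 243 codons after the last shared codon in isoforms with a skipped exon, and for 264 codons where the transcript ended in the intron.

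**Figure D1:**
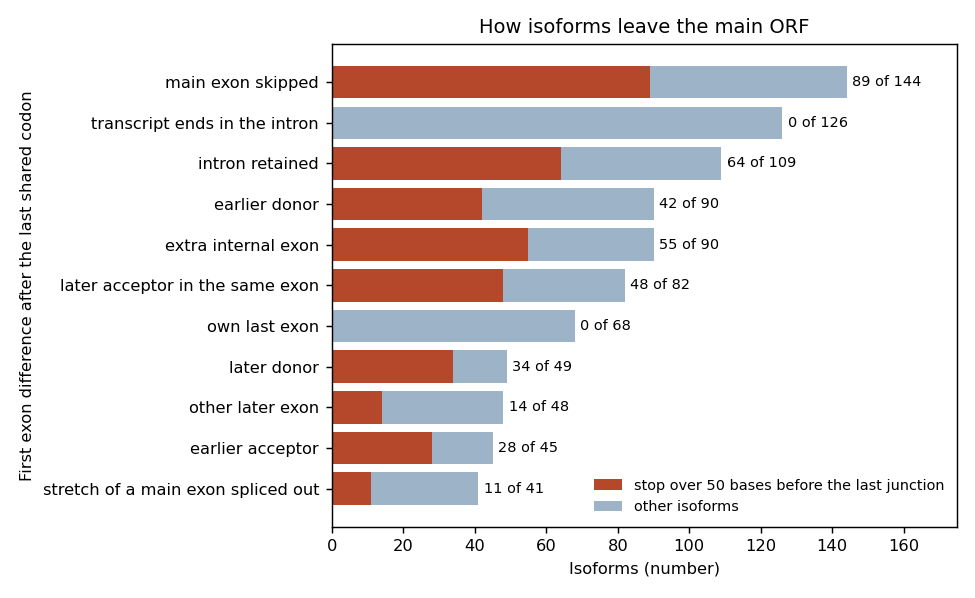
The bars count isoforms by the first exon difference after the last shared codon, and the red part counts those whose stop lies over 50 bases before the last exon junction of their transcript. Skipped exons lead with 144 isoforms, 89 of them with such a stop; transcripts that end in the intron and isoforms with their own last exon have 0 because the stop then lies in the last exon.

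A stop over 50 bases before the last exon junction, the usual position rule for nonsense-mediated decay, was found in 385 isoforms (43.2%, 39.9 to 46.5), against 651 of 10418 main ORFs (6.25%, 5.79 to 6.73). The share was 6.52% among 3406 ORFs with another in-frame start and the main stop, and 2.62% among 2443 splice variants with the main start and stop. It was 83.2% among the 5208 ORFs without a shared in-frame codon, upstream ORFs among them. Other in-frame starts and splice variants keep the main stop by definition, so their shares largely follow that of main ORFs. Isoforms cannot use that stop and their main ORF is the longest, so part of the contrast is set by the rules. In 344 isoforms the stop lay over 50 bases before the last junction while that of the own main ORF did not. In 38 the reverse held, in 41 both were early and in 469 neither was. Where it was early, the stop lay a median of 838 bases before the junction (quartiles 369 and 1860). Stops in main coding bases read in another frame were early in 214 of 325 (65.8%, 60.4 to 71.0), those in an exon of the isoform's own in 51 of 142 (35.9%), and those past the main stop in the main transcript's exons in 11 of 75 (14.7%). Transcripts that end in the intron (0 of 126) and isoforms with their own last exon (0 of 68) had none, because their stop lies in the last exon. Among the other events, the share ran from 69.4% for later donors (34 of 49) and 62.2% for earlier acceptors (28 of 45) to 26.8% for a removed stretch of exon (11 of 41). The position rule was applied to the listed transcript, and whether these transcripts are degraded was not measured.

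Isoforms that read from a main exon straight on into the intron numbered 284 and showed a frame-dependent pattern of tail lengths. When the last shared codon left 2 bases of the next codon at the exon end, the tail had exactly 1 codon in 66 of 97 isoforms (68.0%, 57.8 to 77.1). It had exactly 1 codon in 2 of 100 isoforms when 0 bases were left (2.0%, 0.243 to 7.04) and in 0 of 87 when 1 base was left (up to 4.15%). Median tails were 1, 11 and 15 codons for 2, 0 and 1 bases left. With each stop codon counted once the counts were 54 of 81, 2 of 90 and 0 of 79. The pattern was present in each kind of event: with 2 bases left, 27 of 43 isoforms that end in the intron, 26 of 37 that retain it and 13 of 17 with a later donor had a tail of 1 codon. As background, introns of mammals begin with GT, most often followed by a purine and an A. In the frame with 2 bases left, the G completes a codon and the T opens the next, and TAA and TGA are stop codons. The bases at these sites were not read, since no genome of the mm9 build was used here.

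**Figure D2:**
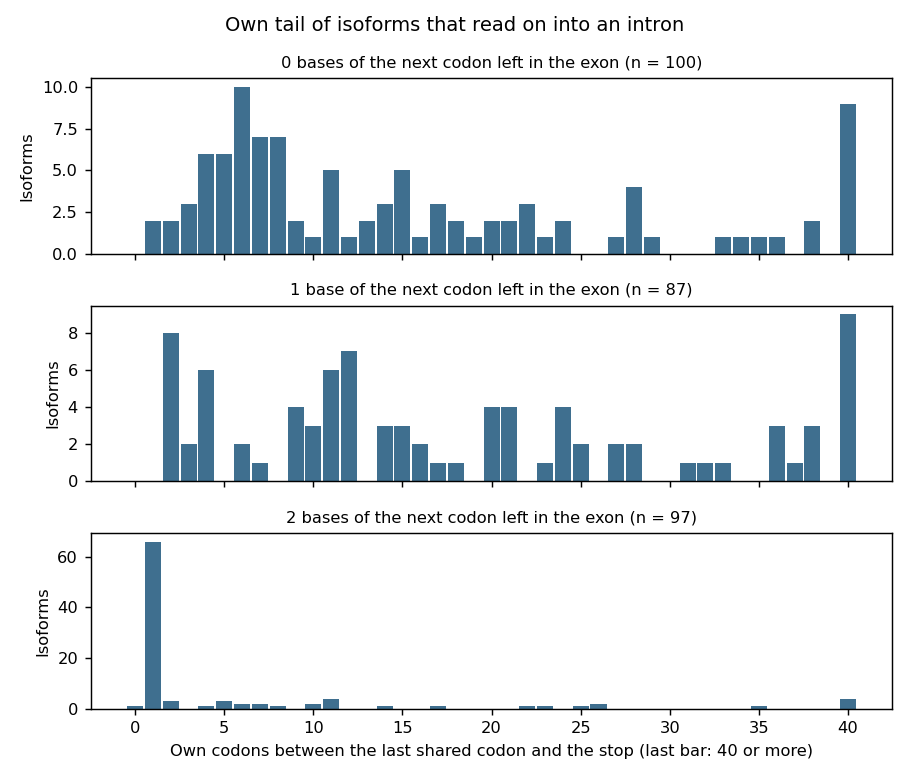
Each panel shows how many isoforms that read on into an intron have a given number of own codons before the stop, for 0, 1 and 2 bases of the next codon left at the exon end (n = 100, 87 and 97; the last bar holds tails of 40 codons or more). With 2 bases left, 66 isoforms stand at exactly 1 codon, while the other panels spread widely.

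Several isoforms that read into an intron belonged to immune and structural genes, some of them with known short forms. Zc3hav1, the zinc finger antiviral protein, had isoforms of 789 and 673 codons that end in the intron after a tail of 1 codon, both with a score of 810, against 996 codons and a score of 987 for the main ORF. Araf, a RAF kinase of the MAP kinase pathway, had one of 186 codons with a score of 833, against 604 codons and a score of 986, and Msn, the membrane and actin linker moesin, one of 156 codons with a score of 946, against 577 codons and a score of 990. Both also had tails of 1 codon. Araf's known short form keeps the Ras-binding part and lacks the kinase domain.

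A longer tail in the intron was listed for Lmna, which codes for the nuclear lamins A and C. Its isoform had 577 codons with 6 of its own and a score of 952 (chr3:88287219-88307034, minus strand; coordinates are those of mm9), against 668 codons and a score of 810 for the main ORF. Nck1, an adaptor between receptors and the actin machinery, had an isoform of 313 codons with a score of 987, against 583 codons and a score of 927. Zbtb46, a transcription factor of classical dendritic cells, had one of 434 codons with a score of 927, against 600 codons and a score of 976. Cd80, a ligand that costimulates T cells, had one of 258 codons that started inside the main ORF, with a score of 957 against 736 for the main ORF of 361 codons.

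Soluble forms that lack the membrane anchor are known for several cytokine receptors. Of 29 cytokine and growth factor receptor genes with an ORF, 6 had an isoform (20.7%, 7.99 to 39.7), beside 6.75% of all families. With only ORFs at scores of 700 or more, 3 of the 29 did, beside 3.42% of all families. Il1rap, Il4ra and Ifnar2 were also in a list put together for known alternative carboxyl termini. Il4ra had an isoform of 230 codons through an extra exon, with 6 own codons and a score of 949 (chr7:132709169-132715467, plus strand), against 810 codons and a score of 962 for the main ORF. Its stop lay 1854 bases before the last junction. Ifnar2, a chain of the type I interferon receptor, had 4 isoforms, of 176, 251, 247 and 231 codons with scores of 749, 661, 607 and 598, against 513 codons and a score of 942. The 3 that end in the intron shared 12 own codons and a stop, and the one of 247 codons skipped an exon. Lifr, the receptor of leukaemia inhibitory factor, had 719 codons and a score of 693 in its isoform, against 1092 codons and a score of 867. Il1rap, the accessory chain of the interleukin 1 receptor, had 377 codons and a score of 607, against 587 codons and a score of 640. Il2rg, the common gamma chain, had isoforms of 266 and 263 codons with scores of 693 and 607, against 369 codons and a score of 988. Il10ra had an isoform of 85 codons with a score of 933, against 575 codons and a score of 899, with 22 shared codons and a tail of 63.

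**Figure D3:**
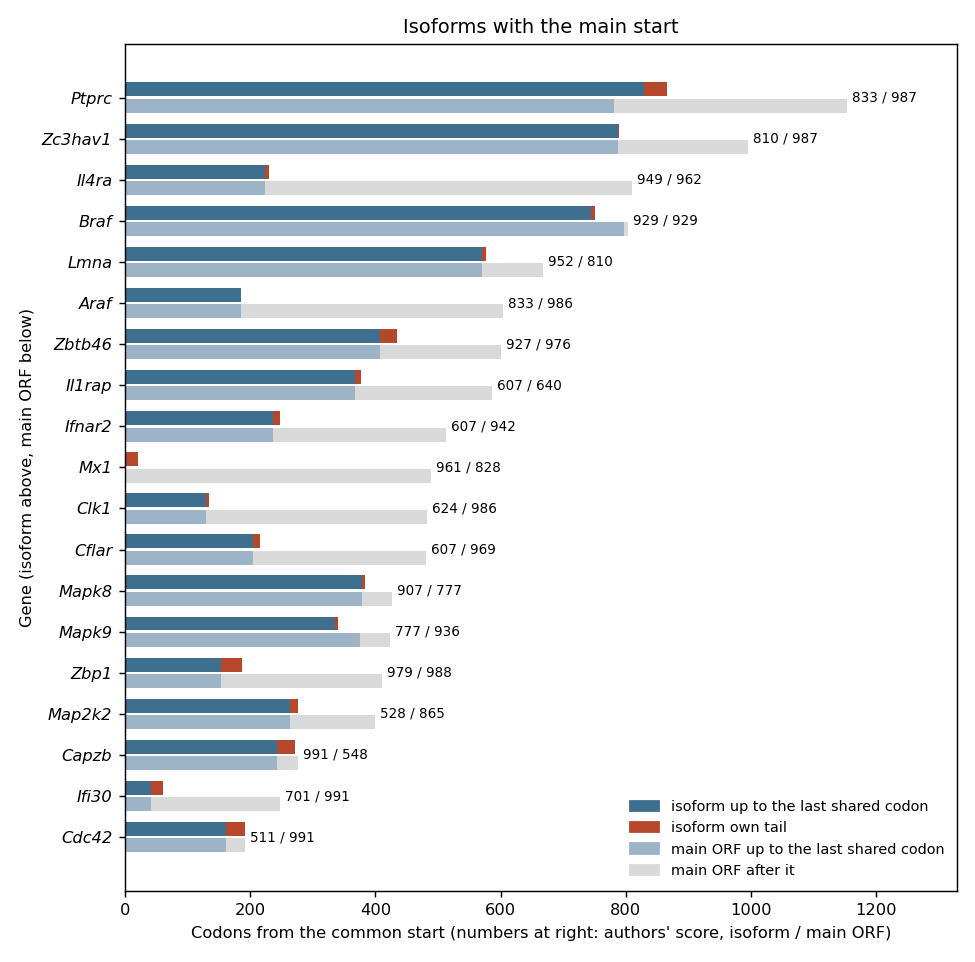
For 19 genes of 4 of the lists with an isoform at the main start, the upper bar of each pair is the isoform and the lower bar the main ORF, in codons from the common start, with the authors' scores at the right (isoform / main ORF). The isoform's own tail (red) is short in most genes, and Mx1 shares only its start codon with the main ORF in the isoform drawn.

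Other isoforms replaced the last coding part of the main ORF with an end of their own, and some were nearly as long as it. Capzb, the beta subunit of actin capping protein, had 272 codons and a score of 991 in the isoform, against 277 codons and a score of 548 in the main ORF, with 29 own codons after 243 shared ones. Cdc42, a small GTPase of cell polarity, had 191 codons in both, with a score of 511 for the isoform and 991 for the main ORF. Mapk8, the stress kinase JNK1, had 3 isoforms of 384 codons that used an earlier acceptor and had a score of 907, against 427 codons and a score of 777. The related Mapk9 had one of 340 codons with a score of 777, against 423 codons and a score of 936. Tmpo, which codes for the lamina-associated polypeptides, had an isoform of 452 codons with a tail of 265 and a score of 969, against 705 codons and a score of 707. Cux1, whose locus also codes for the Golgi protein CASP, had 5 isoforms with the same tail of 260 codons. Those with 695, 669 and 608 codons had a score of 967 and those with 678 and 676 codons one of 739, against 1519 codons and a score of 916 in the main ORF. Kif1b_2, named for a kinesin motor with forms for different cargo, had an isoform of 1150 codons with a tail of 491 and a score of 986, against 1687 codons and a score of 981. Igf1, a growth factor with alternative E peptides, had 153 codons and a score of 986, against 159 codons and a score of 980. Acpp, an acid phosphatase with secreted and membrane forms, had 381 codons and a score of 990, against 417 codons and a score of 952.

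Among 38 genes with an ORF that were listed for described alternative carboxyl termini, 13 had an isoform (34.2%, 19.6 to 51.4). These 13 had 19 isoforms, of which 2 had a stop over 50 bases before the last junction, Il4ra and Clk1. That list was put together because such ends are known, so its share is a check of the rule and no result. Cflar, the caspase 8 regulator c-FLIP, was in it with an isoform of 215 codons and a score of 607, against 481 codons and a score of 969. Ptprc, the leukocyte phosphatase CD45, had isoforms of 866 and 819 codons with a score of 833 each, against 1154 codons and a score of 987.

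Genes for splicing factors had isoforms with early stops and with stops in the last exon. Of 33 genes for SR proteins and hnRNPs with an ORF, 12 had an isoform (36.4%, 20.4 to 54.9), beside 6.75% of all families. They had 18 isoforms, 12 of them with a stop over 50 bases before the last junction, beside 385 of all 892 (43.2%). These 12 include 3 isoforms of Hnrnpl that share 1 stop, so they are not independent of each other. With only ORFs at scores of 700 or more, 6 of the 33 genes had an isoform, beside 3.42% of all families. Srsf3, a small SR protein, had an isoform of 69 codons in a retained intron with a score of 865, against 164 codons and a score of 991. It left the main ORF after 68 codons and stopped after 1 more, 2628 bases before the last junction (chr17:29173188-29173397, plus strand). Its other isoform, of 18 codons with a score of 717, started inside the main ORF and stopped in the last exon. Tra2b, a splicing activator, had isoforms of 212 and 76 codons with scores of 865 and 925, against 288 codons and a score of 987. Ptbp3, a relative of the polypyrimidine tract-binding protein, had one of 20 codons with a score of 990, the same as its main ORF of 551 codons, and it stopped 1435 bases before the last junction after 2 shared codons. Hnrnpl had 3 isoforms of 286, 283 and 317 codons with scores of 654, 598 and 514, against 555 codons and a score of 665. All 3 ended at 1 stop, 521 bases before the last junction. Stops in the last exon were also listed for Hnrnpk, Srsf10 and Syncrip. Hnrnpk had 458 codons and a score of 637, against 463 codons and a score of 946. Srsf10 had 183 codons and a score of 980, against 262 codons and a score of 982. Syncrip had 561 and 541 codons with a score of 990 each and 460 codons with a score of 566, against 623 codons and a score of 800. Of 53 other spliceosome and splicing regulator genes 12 had an isoform (22.6%, 12.3 to 36.2), among them Clk1, a kinase of SR proteins, and 4 of 53 did at scores of 700 or more. Clk1 skipped an exon, ended after 135 codons with a score of 624, against 483 codons and a score of 986, and stopped 612 bases before the last junction.

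In the interferon-stimulated and nucleic acid sensing list, 6 of 36 genes had an isoform (16.7%, 6.37 to 32.8), an interval that holds the 6.75% of all families. Mx1, an interferon-induced antiviral GTPase that is defective in many laboratory strains, had 4 isoforms. They had 21, 309, 323 and 288 codons with scores of 961, 957, 873 and 693, against 489 codons and a score of 828 in the main ORF, and all 4 stops were early, 295 to 1273 bases before the last junction. This main ORF is only the longest one listed, and whether it codes for the intact protein in these C57BL/6J cells was not checked. Zbp1, a sensor of left-handed nucleic acids, had an isoform of 187 codons with its own last exon and a score of 979, against 411 codons and a score of 988. Samhd1, which degrades deoxynucleotides, had 620 codons and a score of 897, against 622 codons and a score of 514. Irf1, an interferon regulatory factor, had 40 codons and a score of 532, against 329 codons and a score of 991.

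In the NF-kB list, 5 of 26 genes had an isoform (19.2%, 6.55 to 39.4), and their 7 isoforms had a median score of 534. The highest score, 845, belonged to an isoform of 599 codons of Malt1, a paracaspase that activates NF-kB, against 832 codons and a score of 981, and the other isoforms of Malt1 had 565 and 534. Nfkb1, the precursor of the p50 subunit, had an isoform of 894 codons with a score of 548, against 971 codons and a score of 990. Nfkb2 had one of 36 codons and Relb one of 66 codons, both with a score of 518, against 952 and 938 for their main ORFs, and both stopped over 2000 bases before the last junction (2588 and 2088). Among MAPK and PI3K pathway kinases 7 of 36 genes had an isoform (19.4%), including Braf with 751 codons, against 804, at the same score of 929 in both. In antigen presentation and dendritic cell genes the count was 4 of 27 (14.8%), in actin cytoskeleton genes 6 of 46 (13.0%), in Toll-like receptor signalling genes 1 of 30 (3.33%) and in proteasome subunits 1 of 33 (3.03%). The 6.75% of all families lies within the intervals of the NF-kB, antigen presentation, actin, Toll-like receptor and proteasome lists. At scores of 700 or more, 1 of 26 NF-kB genes and 1 of 46 actin genes had an isoform, and the actin share was then below the 3.42% of all families.

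Cytosolic ribosomal proteins had an isoform in 9 of 80 genes (11.2%, 5.28 to 20.3), and 9 of their 11 isoforms read a retained intron, beside 109 of all 892 (12.2%). The 6.75% of all families lies within the interval. With the main start only, 5 of 80 genes had an isoform, beside 5.45% of all families, and at scores of 700 or more 3 of 80 did, beside 3.42%. Rpl30 had one of 56 codons with a score of 777, against 115 codons and a score of 988, and Rpl21 one of 45 codons with a score of 833, against 160 codons and a score of 990. The shortest, in Rpl24, had only the start codon in common with the main ORF and 1 codon more, at a score of 910 against 991 for the main ORF of 157 codons. Footprints on the start codon fall on both ORFs and cannot be told apart in this list. Over all lists, 10 of 12 had a larger share of genes with an isoform than the 6.75% of all families. Gene lists and members were chosen with earlier results of these data known, and no test was run on the lists.

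**Figure D4:**
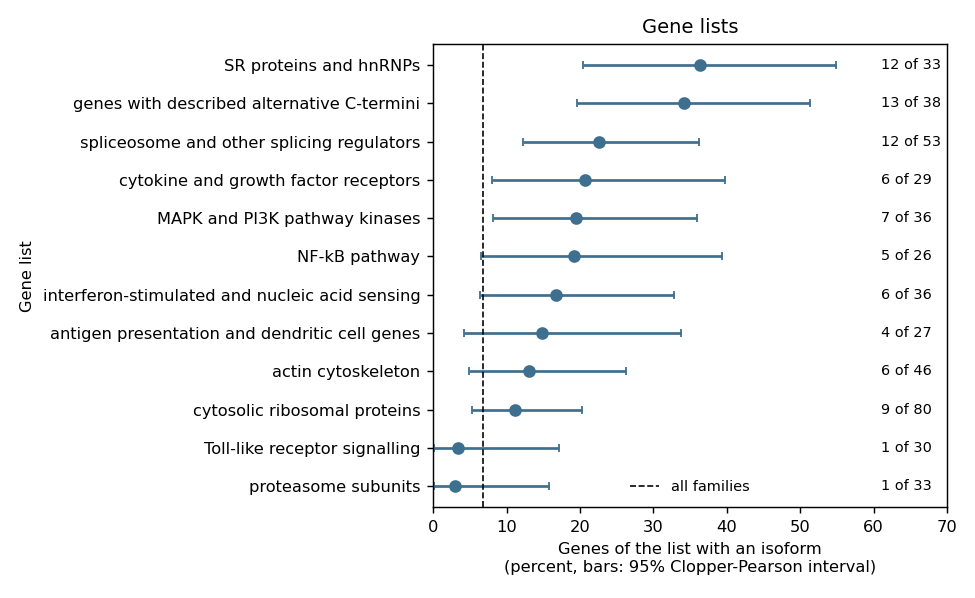
Points give the percent of genes with a listed ORF that have an isoform, for 12 gene lists, with 95% Clopper-Pearson intervals; the dashed line is the share of all families, 6.75%. SR proteins and hnRNPs stand highest at 12 of 33 genes, and Toll-like receptor signalling and proteasome subunits stand at 1 gene each.

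The share of families with an isoform was lowest for main ORFs without a coding intron. It was 0.821% for main ORFs in 1 coding exon (6 of 731 families), 5.74% for 2 to 4 exons (109 of 1899), 7.45% for 5 to 9 (241 of 3234), 7.29% for 10 to 19 (231 of 3167) and 8.36% for 20 or more (116 of 1387). Most of the exon differences described above need an intron within the main coding sequence. The low share at 1 coding exon is thus largely set by the rule. By the score of the main ORF, the share was 6.41% at 500 to 699, 5.48% at 700 to 899 and 7.47% at 900 to 991.

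The authors' score, a whole number from 500 to 991 in this list, was lower for most isoforms than for the main ORF beside them. Its median was 693 in isoforms (quartiles 566 and 833) and 936 in their main ORFs (quartiles 810 and 979). The median difference, isoform minus main, was -160.5 (quartiles -331 and -18.75). Of the 892 isoforms 176 scored above their main ORF (19.7%, 17.2 to 22.5), 16 scored the same and 700 below, where 27.3% of all listed ORFs other than main ORFs scored above theirs. For ORFs with another in-frame start and the main stop the share was 42.7%, and for those without a shared in-frame codon 31.5%. For splice variants with the main start and stop it was 0.0%. Every one of 2220 pairs of start and stop that several ORFs shared had a single score, so the score belongs to the start and stop and not to the splice form. The 0.0% is therefore fixed, and these splice variants lower the 27.3%, which also includes the isoforms. In 83 of the 176 the main ORF scored under 700 (47.2%, 39.6 to 54.8), as it did for 129 of all 892 (14.5%). A low main score leaves more room above it, so at least part of this excess follows from how the 176 were chosen. Isoforms above their main ORF shared a median of 58.8% of it, against 39.7% for those below. Their stops were over 50 bases before the last junction in 42 of 176 (23.9%, 17.8 to 30.9), against 336 of 700 (48.0%, 44.2 to 51.8) for those below.

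**Figure D5:**
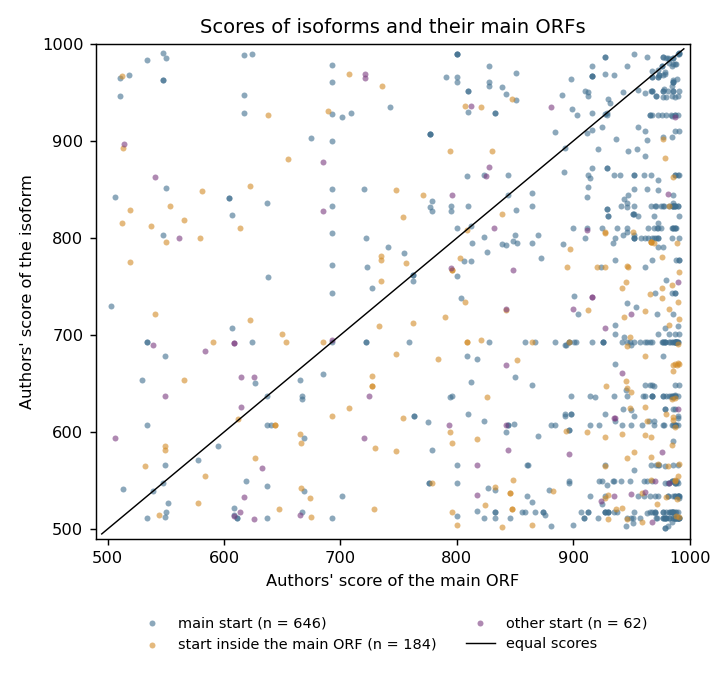
Each point is 1 of 892 isoforms, at the authors' score of its main ORF (x) and its own score (y), coloured by start; the line marks equal scores. Most points (700) lie below the line, and isoforms gather on a few horizontal rows, of which that at 693 holds 56.

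The isoform led by the widest margins in Speg, Sec62, Rnasek and Zcchc6_3. Speg, a muscle kinase gene whose short form is known as APEG-1, had an isoform of 113 codons with a score of 967, against 2427 codons and a score of 512. Sec62, a protein of the endoplasmic reticulum translocon, had 398 codons and a score of 965, against 415 codons and a score of 511. Rnasek had 98 codons and a score of 984, against 116 codons and a score of 534. Zcchc6_3, named for an RNA uridylyltransferase, had 210 codons and a score of 968, against 1534 codons and a score of 518. The widest margin in the other direction was 511 against 991, in Cdc42, Gpr132 and Slc31a2.

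High scores on both sides were found for 100 isoforms in 88 families, in which isoform and main ORF each scored at least 900. Of these, 98 had the main start, and footprints on shared codons fall on both ORFs. High scores on both sides are therefore not separate evidence for each end. A stop over 50 bases before the last junction was found in 40 of the 100 (95% interval 30.3% to 50.3%). Among all isoforms, 50 of the 385 with such a stop scored at least 900 (13.0%, 9.8 to 16.8), against 107 of the other 507 (21.1%, 17.6 to 24.9), and the medians were 693 and 701. Ccl4, a chemokine that is induced by LPS, had an isoform of 35 codons and a main ORF of 92 codons, both with a score of 991. A further Ccl4 isoform with the main start had 64 codons, a lower score of 777 and a stop 447 bases before the last junction. Slfn8, a Schlafen family gene, had 910 codons in both, with 105 shared and 805 own codons and scores of 990 and 991. Srp54a_2, named for the signal recognition particle subunit, had 504 codons and a score of 991 in both. Slfn8 and Srp54a have close copies in the mouse genome, so their reads may be split between copies, and the ends of these isoforms are uncertain.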

How the data were processed

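Ribosome footprints were sequenced from bone marrow-derived dendritic cells, per the labels' protocols. Bowtie2, TopHat and mm9 are named in the submitters' processing notes, without version or role, and no ORF caller, setting or transcript annotation is named there or in the labels (not given in the sources used). Each line of the deposited list gives an ORF's exon blocks, coding span and a score set by the authors, and no line scores under 500. The score was used only to describe, rank or filter ORFs.

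Shared codons, stops and junctions were read from the coding blocks, with the stop codon left out of codon counts and coordinates 1-based (Python 3.11.15, numpy 2.4.6, scipy 1.17.1). The class rules were tested on simulated data. Names were matched to a RefSeq table of GRCm38.p6, whose coordinates were not used. No test was run, since the list has no replicates and no groups.

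The members and gene lists were chosen with earlier results of these data known. Genes were named by rule: the families with most isoforms, the highest scores, the largest and smallest differences from the main ORF, the highest scores for each kind of stop, up to 4 genes per list, the longest tails, and all members of the list of described alternative carboxyl termini with an isoform. Lifr, Irf1 and Hnrnpk lie outside this rule and were chosen after their values were seen. Some results that the rule names are not reported here. Alternatives were other score and length limits, another choice of main ORF and other junction distances.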

Additional observations from a re-analysis of the deposited data

How the results depend on the processing

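The share of isoforms with a stop over 50 bases before the last junction stayed between 40.2% and 44.6% under every alternative run, limits of 55 and 100 bases included (42.9% and 40.7%). With lower scores left out and main ORFs picked again, 394 isoforms in 336 families were found at 700 or more, and 113 in 99 families at 900 or more, against 424 and 157 of the original 892 at these scores. The main start was used by 79.2% and 96.5% of these, and by 76.3% with 1 ORF per stop codon. At 900 or more, 29.2% had the stop in main coding bases, the median share of the main ORF was 37.1%, and 30.1% scored above it (24.9% at 700 or more). With the highest-scoring ORF as main, these values were 33.0%, 48.1% and, by construction, 0.0%, and 78.0% had the main start. Of 12 lists, 9 had a share above that of all families (3.42%) at scores of 700 or more, and 10 with the main start only. Genes with an isoform at 700 or more fell to 6 for SR proteins and hnRNPs, 4 for the spliceosome, 8 for described carboxyl termini, 3 for cytokine receptors, 1 for NF-kB, 1 for actin, 3 for ribosomal proteins and 0 for Toll-like receptor signalling and the proteasome. With the main start only, they fell to 2 for antigen presentation and 5 for ribosomal proteins. The other 13 list counts stayed within 1.5 times. Of the remaining comparisons over alternatives, 44 stayed within the interval or within 1.5 times. The planned match to RefSeq proteins was not run, since no protein table was used here. No paired analysis was possible because the list has no values per library. Depth, lower scores and transcripts outside the authors' models limit which isoforms can be seen.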

Other observations

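Isoforms shared a small set of score values. The 6 commonest scores, which were picked after the data were seen, were 693 (56 isoforms in 53 families), 511 (42), 518 (41), 607 (26), 637 (24) and 833 (24), and together held 213 isoforms (23.9%, 21.1 to 26.8). These 6 values held 156 main ORFs (1.5%, 1.27 to 1.75). With the 6 commonest scores of each class taken instead, the share was 8.49% for other in-frame starts with the main stop. It was 16.6% for splice variants with the main start and stop and 12.8% for main ORFs, where these scores lay between 962 and 990. For ORFs without a shared in-frame codon it was 8.05%, and their 6 commonest scores also included 693, 833 and 637. In all, 233 of the listed ORFs (1.04%) had a score of 693, so this value was not particular to isoforms. The isoforms at 693 had a median tail of 13 codons, the same as all isoforms.

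The family with the name Hax1 had 5 isoforms of 1018, 1002, 1117, 1105 and 1086 codons and a main ORF of 1397 codons. In the RefSeq table the neighbours of Hax1, a mitochondrial apoptosis regulator, are Atp8b2 and Ubap2l, and whether the listed transcripts reach into them was not checked. Mid1, a ubiquitin ligase gene, also had 5 isoforms, of 139, 379, 277, 304 and 327 codons, against 502 in the main ORF, and 4 of them ended at the same stop with a tail of 185 codons. Cbfb, a partner of the RUNX factors, had 4 isoforms of 167, 128, 96 and 87 codons, against 182, all with the same 22 own codons.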
